A study of Mus musculus with 6 samples.

Results

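The actin cytoskeleton and SRF target genes form a set of 39 genes among the 54838 in the deposited count files. They were matched by gene symbol. They hold SRF and its cofactors, focal adhesion proteins, filament crosslinkers, calponin-family proteins, tropomyosins, non-muscle myosin II chains, actins, LIM-domain proteins, and proteins of filament growth and turnover. The genes were picked with their difference between GSK126 and DMSO cells already known, so the fold changes and threshold results of the 39 genes describe the set and support nothing.

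The samples were 3 labelled GSK126 and 3 labelled DMSO, all of B16F10, a pigmented mouse melanoma line grown in serum-containing medium. GSK126 is an inhibitor of EZH2, the enzyme of Polycomb repressive complex 2 that methylates histone H3, and was used at 10 µM. DMSO is its solvent and served as the control. The sources used here do not give how long the cells were treated, nor whether replicates were grown separately, so the p-values speak of the spread among these 6 samples, which could be technical. All 6 samples come from a single established line and a single inhibitor dose.

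SRF is a transcription factor that binds a short DNA element, the CArG box, next to many genes for actin and actin-binding proteins. Its cofactors of the MRTF family bind monomeric actin, and when monomers are taken up into filaments the cofactors enter the nucleus and switch these genes on, so the state of the filaments feeds back on the supply of their parts. SRF works with a separate family of cofactors, the ternary complex factors, at immediate-early genes that answer growth factor signalling. In melanoma cells the products build the stress fibres, focal adhesions and cell cortex that serve adhesion, shape and movement.

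Summed gene counts were 14250457, 14713373 and 14410812 in GSK126 libraries and 13594939, 14072673 and 13597959 in DMSO libraries, and 18889 to 19267 genes had reads in a library. Of 13601 genes with enough reads to test, 1503 (11.1%) passed an adjusted p of 0.05 (edgeR quasi-likelihood test, Benjamini-Hochberg adjustment over all tested genes). Leaving out a library changed that number, to 698 without GSK126 replicate 1, 815 without GSK126 replicate 2, 529 without DMSO replicate 1, 577 without DMSO replicate 2 and 694 without DMSO replicate 3. The 7 melanocyte markers summed to 22772 to 23945 CPM (counts scaled to library size) in GSK126 libraries and 21369 to 22574 CPM in DMSO libraries. Under that sum, 4 of the 7 rose and 1 fell. Mitf, the gene of the melanocyte master regulator, was at 983 ± 30.5 CPM in GSK126 and 650 ± 33.1 CPM in DMSO cells (SD, n = 3 each), a rise of 0.60 on the log2 scale (SE 0.05), and Pmel had a log2 fold change of 0.28, Sox10 of 0.17, Dct of 0.15 and Mlana of -0.28. Of these calls Sox10 and Dct were lost without GSK126 replicate 1 or 2 or any single DMSO library, at adjusted p up to 0.127 for Sox10 and 0.138 for Dct, and Mlana without GSK126 replicate 1 (0.0600), DMSO replicate 1 (0.0885) or DMSO replicate 2 (0.0934), all by edgeR. Summed fibroblast markers (8 genes) stayed between 35.0 and 40.8 CPM in all 6 libraries. Within that sum Col1a2 had a log2 fold change of -0.36 (SE 0.11) and Pdgfrb of 0.27 (SE 0.09). Neither passed the threshold, and the groups of each did not overlap, as in 34.4% of all tested genes. Muscle markers (8 genes, 2 of them at 0 reads throughout) were at 62.2 to 73.3 CPM in GSK126 and 52.9 to 55.8 CPM in DMSO. Macrophage markers (4 genes, 1 at 0 reads throughout) were at 3.19 to 4.11 CPM in GSK126 and 1.93 to 3.34 CPM in DMSO. Of the muscle markers, Smtn rose by 0.40 on the log2 scale (SE 0.08), at 62.6 ± 5.27 CPM in GSK126 and 47.6 ± 1.40 CPM in DMSO cells (SD, n = 3 each), a call lost without any single library but GSK126 replicate 3, at an edgeR adjusted p up to 0.0836. Smtn made up most of the muscle sum. Smtn is also among the 172 further actin pathway genes described below, and is counted there as higher. Des, the only other muscle marker tested, was flat, at -0.004 on the log2 scale (SE 0.13). Des averaged 6.17 ± 0.583 CPM in GSK126 and 6.19 ± 0.365 CPM in DMSO cells (SD, n = 3 each). The remaining muscle markers had at most 4 reads in a library. The part of the melanocyte and muscle markers in the results was not tested. Endothelial and keratinocyte markers (4 genes each, 3 of each at 0 reads throughout) summed to under 1 CPM in every library. In bulk RNA, fewer cells of a type and less RNA per cell cannot be told apart.

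CArG boxes were looked for in the promoter windows of the genes, since the set is defined around SRF. A box was taken as CC, then 6 bases of A or T, then GG, a pattern that reads the same way on both strands, within 250 bases before to 50 bases after a RefSeq gene start (GRCm38.p6). RefSeq windows were at hand for 35 of the 39 genes, the exceptions being Tagln, Actb, Ablim3 and Diaph1. A box was present in 6 of the 35 (17.1%), against 488 of the 27025 genes in the table (1.81%). The genes were listed as SRF targets, so a higher share can follow from how the set was chosen, and nothing is read from it. Srf itself had a pair of boxes, starting 82 and 62 bases before its start. Cnn2 had a box 56 bases before its start. They are the only genes with a box among the 10 genes lower in GSK126, and their 250 bases before the start are printed in full, 5′ to 3′ along the gene, with each box in capitals. The Srf stretch is chr17:46556163-46556412 on the minus strand and the Cnn2 stretch is chr10:79988350-79988599 on the plus strand.
Srf: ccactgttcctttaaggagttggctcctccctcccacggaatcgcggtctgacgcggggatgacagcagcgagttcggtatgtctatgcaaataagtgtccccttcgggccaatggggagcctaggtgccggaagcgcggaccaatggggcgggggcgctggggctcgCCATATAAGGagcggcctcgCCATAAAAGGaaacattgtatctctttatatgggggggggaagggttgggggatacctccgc
Cnn2: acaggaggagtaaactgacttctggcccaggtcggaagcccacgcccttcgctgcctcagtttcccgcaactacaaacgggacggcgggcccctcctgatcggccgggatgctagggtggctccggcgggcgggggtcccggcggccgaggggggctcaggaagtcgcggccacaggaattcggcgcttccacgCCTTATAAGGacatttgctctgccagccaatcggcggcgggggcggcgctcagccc

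The other 4 boxes were in genes that did not pass the threshold or had too few reads to test, and are shown to set them beside those of Srf and Cnn2, as 40 bases around each box with the box in capitals. The Vcl box lies 227 bases before the start (chr14:20929156-20929195, plus strand). That of Actg1 lies 90 before (chr11:120348561-120348600, minus strand) and that of Myl9 161 before (chr2:156775288-156775327, plus strand). The Lima1 box (chr15:99820172-99820211, minus strand) lies 47 bases before a RefSeq start inside the gene, which spans chr15:99778470-99875456.
Vcl: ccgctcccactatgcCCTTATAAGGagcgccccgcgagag
Actg1: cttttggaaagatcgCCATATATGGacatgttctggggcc
Lima1: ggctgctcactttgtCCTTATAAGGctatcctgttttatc
Myl9: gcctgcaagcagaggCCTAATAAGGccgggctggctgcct
Among genes with a window, a box was found in 2 of 10 lower in GSK126, 0 of 2 higher, 3 of 16 not past the threshold and 1 of 7 not tested. Cnn2, Vcl and Lima1 carry the same 10-base box and differed in their values. Cnn2 was lower in GSK126 cells, and Vcl lay next to the threshold on the lower side. Lima1 had a positive fold change that did not pass the threshold, and its value is for the whole gene, not for the start inside it. A match of letters describes the window and does not show that SRF binds there.

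Of the 39 genes, 30 had enough reads to test. GSK126 cells were lower in 10 of the 30 (Srf, Zyx, Tln1, Flna, Actn4, Cnn2, Tpm1, Tpm4, Myh9 and Pdlim7), where 5.18% of all tested genes were lower, and higher in 2 (Ablim1 and Evl), where 5.87% of all were higher. The other 18 did not pass. The 3 samples of each group did not overlap in 14 genes lower in GSK126, beside 16.8% of all tested genes, and in 4 higher, beside 17.6%. In either direction 34.4% of all tested genes did not overlap. The median log2 fold change of the 30 was -0.14, and that of all tested genes was -0.000479. Since the contrast chose the genes, nothing is read from these counts. Just inside the threshold were Actn4 at an adjusted p of 0.0449, Evl at 0.0288 and Tln1 at 0.0207, and just outside it were Vcl at 0.0529, Lima1 at 0.0694 and Tpm3 at 0.0736 (edgeR). The 39 genes took 0.707%, 0.783% and 0.740% of all counts in GSK126 libraries and 0.854%, 0.857% and 0.939% in DMSO libraries.

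**Figure D1:**
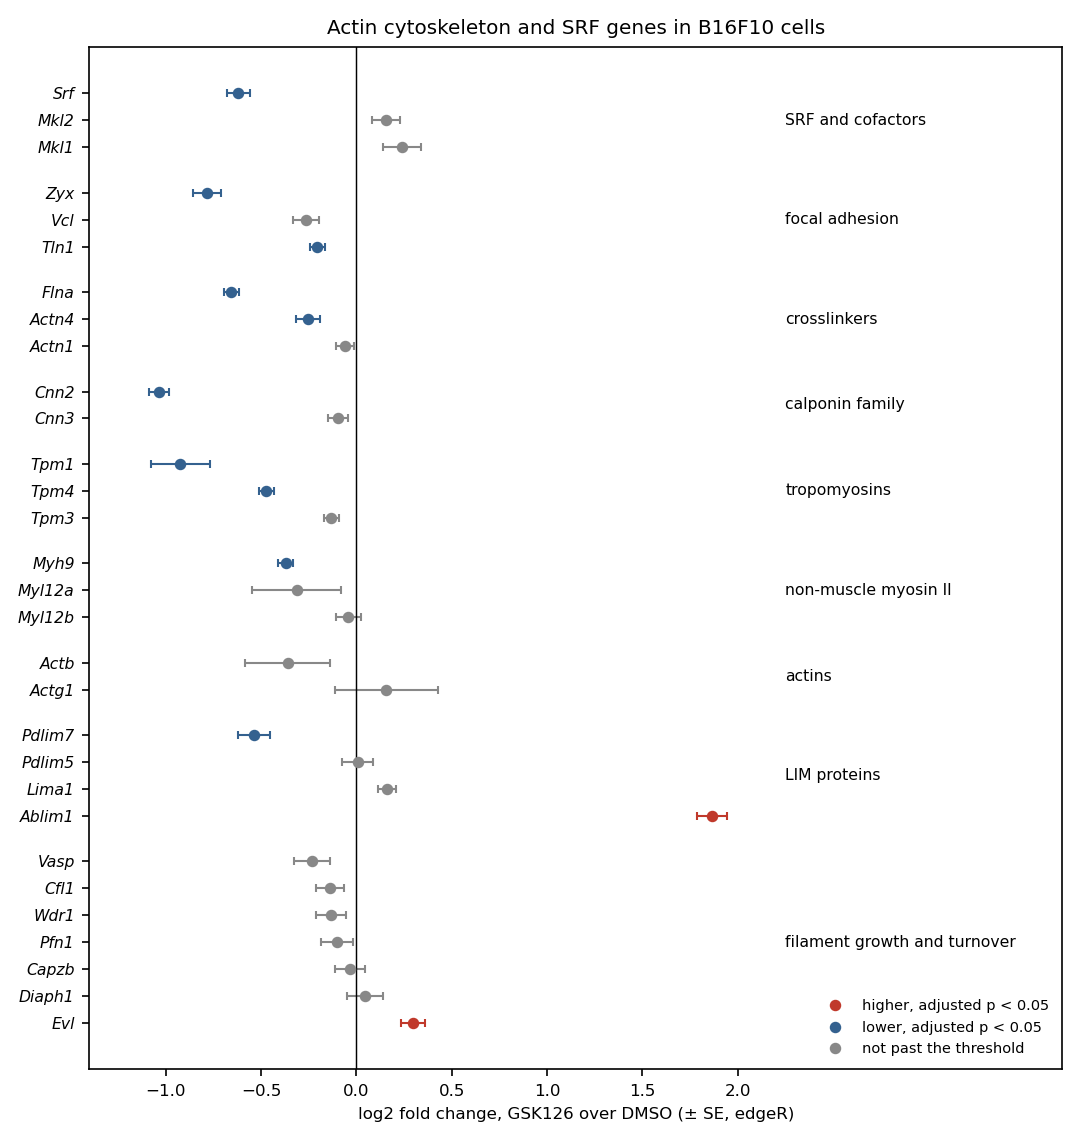
Log2 fold change of GSK126 over DMSO with its standard error (edgeR) for the 30 genes tested, grouped by role, with 3 samples in each group. Ablim1 lies far to the right at 1.86, Cnn2 lies farthest to the left at -1.04, and every tested focal adhesion, crosslinker, calponin, tropomyosin and myosin gene lies left of 0.

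Srf, the transcription factor at the centre of the set (chr17:46548329-46556175 in the files' GRCm38 positions), had 32.5, 34.3 and 33.9 CPM in GSK126 cells, against 51.5, 51.6 and 51.5 CPM in DMSO cells. All 3 GSK126 samples were below all 3 DMSO samples, and the DMSO samples were nearly identical. Srf fell by 0.62 on the log2 scale (SE 0.06), which is 1.54-fold. Neither gene of its MRTF cofactors passed the threshold. Mkl1, which encodes MRTF-A, had 34.2, 30.7 and 32.7 CPM in GSK126 cells and 26.7, 31.2 and 24.9 CPM in DMSO cells, with DMSO replicate 2 inside the GSK126 range and a log2 fold change of 0.24 (SE 0.10) that did not pass. Mkl2, which encodes MRTF-B, averaged 61.6 ± 5.00 CPM in GSK126 cells and 55.3 ± 0.989 CPM in DMSO cells (SD, n = 3 each). Its groups did not overlap, with a log2 fold change of 0.15 (SE 0.07) that did not pass either. Mkl1 overlaps Sgsm3 by 10 exon bases in GENCODE M21, and Sgsm3 had 99.6% as many reads.

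The adhesion genes encode proteins that tie actin to integrins. Zyx encodes zyxin, a LIM protein that gathers at strained adhesions and stress fibres. It had 50.3, 53.4 and 53.8 CPM in GSK126 cells, against 82.3, 94.2 and 94.5 CPM in DMSO cells. The groups were far apart, with DMSO replicate 1 the lowest of its group, and Zyx fell by 0.78 on the log2 scale (SE 0.07). Tln1 encodes talin, which binds integrin tails directly. Its level was 405, 422 and 429 CPM in GSK126 cells and 492, 479 and 476 CPM in DMSO cells. The difference was small beside that of Zyx, with a log2 fold change of -0.20 (SE 0.04), but the groups did not overlap. The Tln1 call was lost without GSK126 replicate 1 (adjusted p 0.0700), GSK126 replicate 2 (0.0587), DMSO replicate 1 (0.0866), DMSO replicate 2 (0.0762) or DMSO replicate 3 (0.0565), all by edgeR.

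Vcl encodes vinculin, which links talin to actin. It had 88.9, 103.4 and 104 CPM in GSK126 cells and 117, 122 and 116 CPM in DMSO cells. The groups did not overlap, and the log2 fold change of -0.27 (SE 0.07) just missed the threshold with edgeR, while DESeq2 put it inside at an adjusted p of 0.0407. Vcl shares 2090 exon bases with Ap3m1, which had 70.9% as many reads as Vcl and a log2 fold change of 0.09 (SE 0.05). Since no source used here names the strand that was counted, reads of the shared stretch cannot be told apart.

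Filamin A, encoded by Flna (chrX:74223461-74249820), joins filaments into orthogonal networks. It had 408, 393 and 407 CPM in GSK126 cells, against 651, 624 and 628 CPM in DMSO cells. Replicates lay close together within each group, and Flna fell by 0.66 on the log2 scale (SE 0.04). The muscle filamin gene Flnc was near absence, at 0, 1 and 0 reads in GSK126 libraries and 4, 2 and 5 reads in DMSO libraries, too few to test.

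The alpha-actinin genes encode dimers that bundle parallel filaments. Actn4 had 355, 358 and 390 CPM in GSK126 cells, against 472, 422 and 419 CPM in DMSO cells. The groups did not overlap, and the log2 fold change was -0.25 (SE 0.06). The Actn4 call did not hold without GSK126 replicate 1 (edgeR adjusted p 0.130), GSK126 replicate 2 (0.119), DMSO replicate 1 (0.123), DMSO replicate 2 (0.0934) or DMSO replicate 3 (0.0762). Actn1 had 109, 102.6 and 109 CPM in GSK126 cells and 111, 110 and 113 CPM in DMSO cells. Its groups nearly touched, with a log2 fold change of -0.06 (SE 0.05) that did not pass.

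Calponins bind along filaments and restrain myosin. Cnn2 (chr10:79988584-79996062), with the CArG box shown above, had 67.98, 64.6 and 61.9 CPM in GSK126 cells and 132, 132 and 136 CPM in DMSO cells. It fell 2.05-fold, a log2 fold change of -1.04 (SE 0.05), with no overlap between the groups. Its close relative Cnn3 averaged 208 ± 13.3 CPM in GSK126 cells and 223 ± 0.440 CPM in DMSO cells (SD, n = 3 each), with a log2 fold change of -0.10 (SE 0.05) that did not pass. The balance between the 2 genes differed between the groups: of summed calponin FPKM (the deposited scale, in fragments per kilobase of gene length relative to library size), Cnn2 made up 41.9% ± 2.15 in GSK126 cells and 58.1% ± 0.474 in DMSO cells (SD, n = 3 each), Cnn3 being the rest. Which gene was more abundant depends on the length used. Per kilobase of merged exons, the Cnn2 share was 27.8% ± 1.78 in GSK126 cells and 42.4% ± 0.476 in DMSO cells, so that Cnn3 led in both groups.

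Cnn1, Tagln and Tagln2, also of the calponin family, had too few reads to test. Cnn1 had 0 reads in all 6 libraries, where a count of 0 allows up to 0.204 to 0.221 CPM (3 counts, counting error only). Tagln, which encodes transgelin (SM22), had 4, 3 and 5 reads in GSK126 libraries and 6, 1 and 0 in DMSO libraries, and its exons overlap the far more abundant Pcsk7. Tagln2 had 4, 7 and 3 reads in GSK126 libraries and 4, 8 and 9 in DMSO libraries.

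Tropomyosins coil along filaments and set which myosins and severing proteins can bind. Tpm4 (chr8:72134975-72153142) had 256, 245 and 250 CPM in GSK126 cells, against 354, 345 and 344 CPM in DMSO cells. Replicates were tight and the groups apart, and Tpm4 fell by 0.47 on the log2 scale (SE 0.04). Tpm1 (chr9:67022590-67049406) had 330, 333 and 330 CPM in GSK126 cells and 543, 531 and 810 CPM in DMSO cells. DMSO replicate 3 stood well above the other DMSO samples. Tpm1 fell by 0.92 (SE 0.15), and without DMSO replicate 3 the log2 fold change was -0.70 and still past the threshold. Over the fits that left out a single library, its edgeR adjusted p reached 0.0486, just inside the threshold.

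Tpm3 was flatter, with 338, 348 and 334 CPM in GSK126 cells and 373, 381 and 365 CPM in DMSO cells. Its groups did not overlap, with a log2 fold change of -0.13 (SE 0.04) that did not pass. Tpm2 had 6, 1 and 0 reads in GSK126 libraries and 6, 5 and 0 in DMSO libraries, too few to test. Summed tropomyosin FPKM was 161 ± 2.73 in GSK126 cells and 225 ± 6.97 in DMSO cells (SD, n = 3 each), a ratio of 0.717. Within that smaller sum, Tpm3 held a larger share, 17.9% ± 0.529 in GSK126 cells against 14.1% ± 0.772 in DMSO cells. Tpm1 held 12.4% ± 0.212 in GSK126 cells and 16.8% ± 3.60 in DMSO cells, a difference of -4.34 percentage points that was -2.27 without DMSO replicate 3. Per kilobase of merged exons, Tpm1 held 23.1% ± 0.272 in GSK126 cells and 30.4% ± 5.38 in DMSO cells. On that scale Tpm3 held 25.3% ± 0.603 in GSK126 cells and 19.5% ± 1.67 in DMSO cells. By FPKM, the share of Tpm4 was 69.6% ± 0.711 in GSK126 cells and 69.1% ± 2.88 in DMSO cells, a difference within the spread of the DMSO samples. Per kilobase of merged exons the Tpm4 share was lower, at 51.5% ± 0.816 in GSK126 cells and 50.1% ± 3.74 in DMSO cells.

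**Figure D2:**
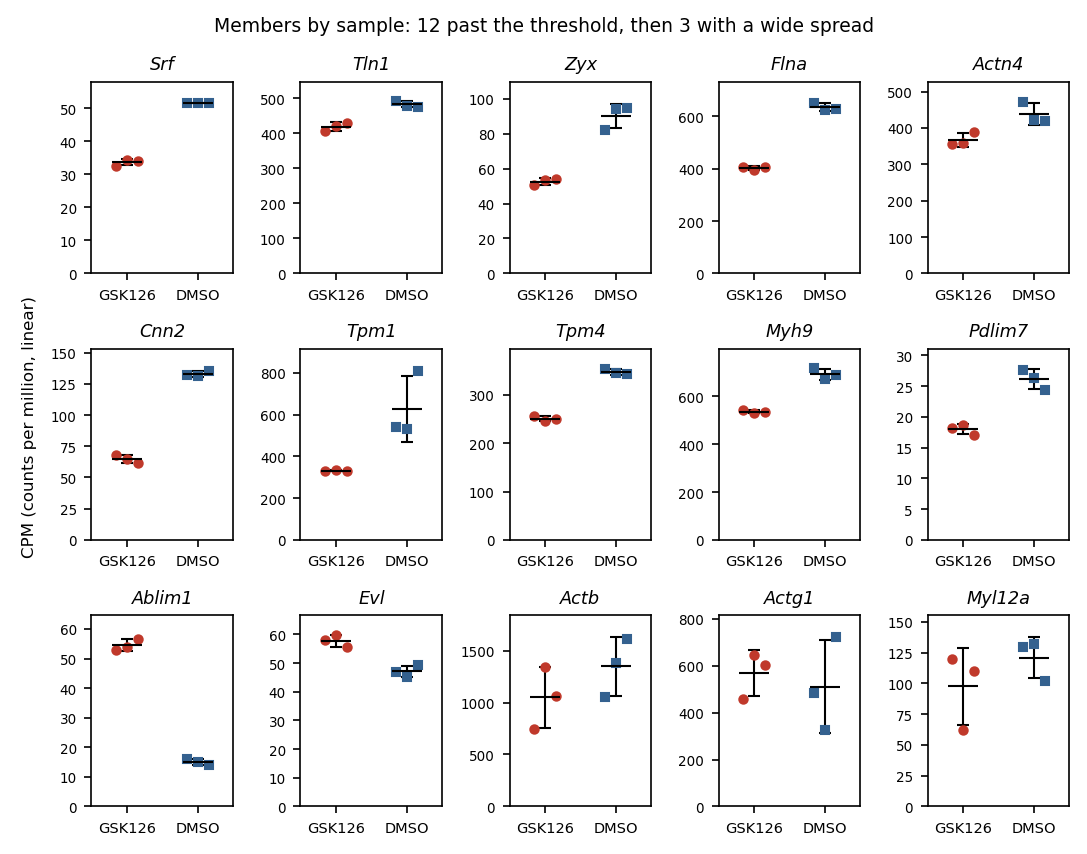
CPM of each sample (points) with the group mean and SD (lines and bars, n = 3 each) for the 12 genes past the threshold and for Actb, Actg1 and Myl12a, on linear axes that start at 0. GSK126 and DMSO points are apart in the panels of the 12, and DMSO replicate 3 of Tpm1 stands at 810 CPM. In the last 3 panels the groups overlap.

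Myh9 (chr15:77760587-77842175) encodes the heavy chain of non-muscle myosin IIA, the motor that pulls on stress fibres. It had 544, 529 and 535 CPM in GSK126 cells, against 718, 672 and 689 CPM in DMSO cells. The groups were apart, and Myh9 fell by 0.37 on the log2 scale (SE 0.04). Myh10, the IIB heavy chain, had 0, 1 and 3 reads in GSK126 libraries and 2, 0 and 2 in DMSO libraries. Myh14, the IIC heavy chain and not in the set of 39, rose, with 7.89, 6.19 and 6.41 CPM in GSK126 cells and 4.56, 3.98 and 4.37 CPM in DMSO cells. Myh9 nonetheless made up 98.3% ± 0.185 of the summed heavy chain FPKM in GSK126 cells and 99.2% ± 0.0414 in DMSO cells (SD, n = 3 each).

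The regulatory light chains switch the motor on when phosphorylated. Myl12a had 120, 62.1 and 110 CPM in GSK126 cells and 130, 132 and 101.95 CPM in DMSO cells. GSK126 replicate 2 was low and the groups overlapped, with a log2 fold change of -0.31 (SE 0.23) that did not pass. Its neighbour Myl12b averaged 77.3 ± 4.78 CPM in GSK126 cells and 79.6 ± 3.43 CPM in DMSO cells (SD, n = 3 each), also overlapping. The 2 genes have very similar coding sequences, so reads may have been split between them. Myl9, the smooth muscle light chain, had 4, 5 and 0 reads in GSK126 libraries and 7, 4 and 10 in DMSO libraries, too few to test despite the CArG box in its window.

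The actin genes varied widely between replicates. Actb, the gene for beta-actin, had 746, 1338 and 1067 CPM in GSK126 cells, against 1053, 1376 and 1616 CPM in DMSO cells. The groups overlapped, with a log2 fold change of -0.36 (SE 0.22). Actg1, the gene for gamma-actin, had 459, 648 and 603 CPM in GSK126 cells and 486, 326 and 722 CPM in DMSO cells. DMSO samples alone spanned more than the GSK126 samples, with a log2 fold change of 0.16 (SE 0.27). With edgeR, 0 of the 2 passed the adjusted threshold, 0 had an unadjusted p under 0.05, and DESeq2 and limma-voom called 0 as well. The log2 fold change of Actb was close in size to the -0.37 of Myh9, with a standard error of 0.22 where that of Myh9 was 0.04.

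The coding sequences of Actb and Actg1 are similar, so some reads may have been assigned to the wrong gene of the 2, which was not tested. Their summed FPKM, with Acta2, was 269 ± 65.0 in GSK126 cells and 310 ± 68.4 in DMSO cells (SD, n = 3 each), again overlapping. The Actb share of that sum was 65.6% ± 2.73 in GSK126 cells and 73.8% ± 6.80 in DMSO cells, and the ranges did not overlap, at 63.1% to 68.5% in GSK126 samples and 69.6% to 81.7% in DMSO samples. The difference of -8.25 percentage points was -4.32 without DMSO replicate 2. Acta2, the smooth muscle actin gene, had 2, 1 and 0 reads in GSK126 libraries and 0 in each DMSO library. Among the 30 genes tested, 4 spread at least 1.5-fold within a group of replicates (Actb, Actg1, Myl12a and Tpm1), against 11.4% of all genes with at least 5 CPM.

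The LIM-domain genes held the largest rise of the set. Ablim1 (chr19:57032733-57314919) encodes actin-binding LIM protein 1, which carries LIM domains and a villin-type headpiece that binds filaments. It had 53.0, 53.8 and 56.7 CPM in GSK126 cells, against 15.9, 15.2 and 13.9 CPM in DMSO cells. Every GSK126 sample was more than 3 times as high as every DMSO sample. Ablim1 rose 3.64-fold, a log2 fold change of 1.86 (SE 0.08), from a low level per length: its FPKM was 1.67 ± 0.0506 in GSK126 cells and 0.457 ± 0.0341 in DMSO cells (SD, n = 3 each). On log2(FPKM + 1), a scale that understates differences at low levels, the fold change of Ablim1 was 0.87. Its relative Ablim3 had 0 reads in all 6 libraries. No CArG box was found in the Ablim1 window.

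Pdlim7, which encodes the PDZ and LIM protein enigma, had 18.2, 18.8 and 17.1 CPM in GSK126 cells and 27.6, 26.4 and 24.5 CPM in DMSO cells. The groups were apart, and Pdlim7 fell by 0.54 on the log2 scale (SE 0.08). Its relative Pdlim5 averaged 90.3 ± 7.16 CPM in GSK126 cells and 89.9 ± 7.33 CPM in DMSO cells (SD, n = 3 each), with overlapping groups and a log2 fold change of 0.01 (SE 0.08). Lima1 encodes EPLIN, which stabilises bundles at the cortex. It had 429, 427 and 467 CPM in GSK126 cells and 395, 397 and 393 CPM in DMSO cells. Its groups did not overlap, with a log2 fold change of 0.16 (SE 0.05) that did not pass.

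Among the 7 genes of filament growth and turnover, Evl passed the threshold. It encodes an Ena/VASP protein that extends barbed ends. Evl had 58.2, 59.8 and 55.5 CPM in GSK126 cells, against 46.7, 45.3 and 49.3 CPM in DMSO cells. The groups were apart and Evl rose by 0.30 on the log2 scale (SE 0.06). The call was lost without GSK126 replicate 1 (edgeR adjusted p 0.0874), GSK126 replicate 2 (0.0878), DMSO replicate 1 (0.0938), DMSO replicate 2 (0.109) or DMSO replicate 3 (0.0596). Its family member Vasp had 92.1, 87.3 and 72.6 CPM in GSK126 cells and 92.5, 99.0 and 105 CPM in DMSO cells, groups that just failed to overlap, with a log2 fold change of -0.23 (SE 0.10) that did not pass. Of summed Ena/VASP FPKM, Evl made up 29.8% ± 1.69 in GSK126 cells and 23.3% ± 1.14 in DMSO cells (SD, n = 3 each). Vasp made up 60.0% ± 2.91 in GSK126 cells and 67.9% ± 0.305 in DMSO cells.

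The remaining 5 turnover genes overlapped between the groups and had log2 fold changes from -0.14 to 0.04. Cfl1, the gene for the severing protein cofilin, had 772, 793 and 659 CPM in GSK126 cells and 781, 812 and 853 CPM in DMSO cells. Pfn1, the gene for the monomer-binding profilin, had 362, 384 and 303 CPM in GSK126 cells and 363, 380 and 381 CPM in DMSO cells. In both, GSK126 replicate 3 was the low sample. Wdr1, whose product helps cofilin, averaged 275 ± 15.5 CPM in GSK126 cells and 302 ± 30.2 CPM in DMSO cells (SD, n = 3 each). Capzb, a subunit of the barbed-end capping protein, averaged 158 ± 15.5 CPM in GSK126 cells and 162 ± 7.61 CPM in DMSO cells. Diaph1, a formin that nucleates and elongates filaments, averaged 65.2 ± 7.14 CPM in GSK126 cells and 63.2 ± 4.95 CPM in DMSO cells.

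Per length, the set spans a wide range of levels. In DMSO cells the most abundant genes per kilobase of merged exons were Actb at 503 ± 105 CPM per kb, Cfl1 at 287 ± 12.8, Actg1 at 192 ± 75.1, Tpm4 at 158 ± 2.63 and Pfn1 at 156 ± 4.19 (SD, n = 3). The spreads of Actg1, Tpm4 and Pfn1 overlap, so their order is not settled. The regulators sat far lower, with Srf at 17.8 ± 0.0276, Mkl2 at 6.16 ± 0.110 and Mkl1 at 4.51 ± 0.528 CPM per kb in DMSO cells. Ablim1 was the lowest of the tested genes in DMSO cells, at 1.25 ± 0.0884 CPM per kb.

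**Figure D3:**
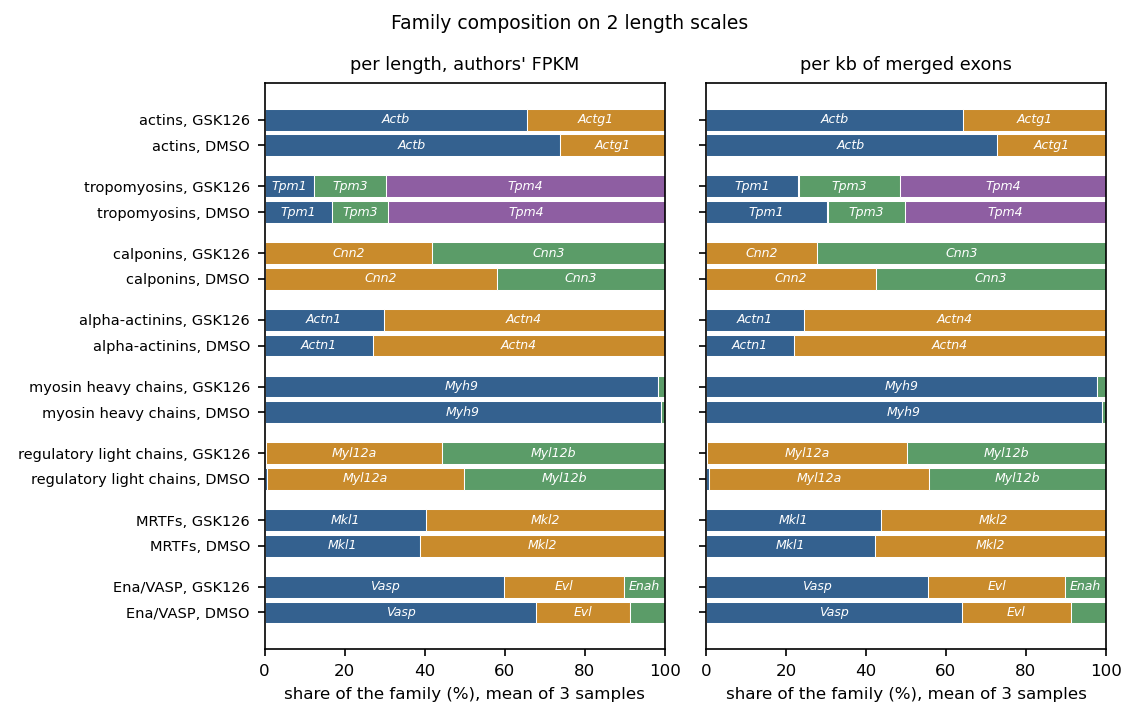
Share of each gene in the summed level of its family (percent, mean of 3 samples), on the deposited FPKM scale (left) and per kilobase of merged GENCODE M21 exons (right), GSK126 above DMSO in each pair. The Cnn2 share is 41.9% in GSK126 and 58.1% in DMSO cells by FPKM, and 27.8% in GSK126 and 42.4% in DMSO cells per kilobase of merged exons.

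A further 172 genes of the actin pathway, listed by function in 10 lists, set the members in their surroundings. Of these, 152 were tested, and 16 were higher and 15 lower in GSK126 cells (10.5% and 9.87% of those tested), beside 5.87% higher and 5.18% lower among all tested genes. The 31 became 15 without GSK126 replicate 1, 17 without GSK126 replicate 2, 12 without DMSO replicate 1, 12 without DMSO replicate 2 and 15 without DMSO replicate 3. In the list of other MRTF-SRF targets, 17 of 24 were tested, with 2 higher, 5 lower and a median log2 fold change of -0.11. The 2 higher genes had log2 fold changes of at most 0.41, smaller in size than the 3 falls named next. Mylk, the gene for the kinase that activates the myosin light chains, had 60.0, 60.7 and 66.8 CPM in GSK126 cells and 83.0, 90.2 and 87.8 CPM in DMSO cells. Mylk fell by 0.48 on the log2 scale (SE 0.06, adjusted p 0.00639). Filip1l fell by 0.45 (SE 0.07, adjusted p 0.0101). Ctgf, which encodes a secreted matrix-associated protein and is also a YAP target, fell by 1.14 (SE 0.20, adjusted p 0.0137), and without GSK126 replicate 1 its adjusted p was 0.0513. Cyr61, a relative of Ctgf named for comparison after its values were seen, overlapped between the groups, with a log2 fold change of -0.11 (SE 0.18).

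Ternary complex factors and the SRF targets they serve formed a list of their own, of immediate-early genes for the most part. Of 13 listed, 12 were tested, with 4 higher (33.3%), 0 lower and a median log2 fold change of 0.47. Among all tested genes, 5.87% were higher and 5.18% lower. No gene of this list was lower with edgeR, at an unadjusted p under 0.05, with DESeq2 or with limma-voom (0 each). Egr1, an immediate-early transcription factor gene, had 85.8, 147 and 93.7 CPM in GSK126 cells, against 21.2, 27.5 and 18.9 CPM in DMSO cells. Fos had 28.0, 40.3 and 32.9 CPM in GSK126 cells and 8.97, 12.3 and 11.9 CPM in DMSO cells. Both groups of samples were well apart in each gene, with log2 rises of 2.27 for Egr1 (SE 0.23, adjusted p 0.00214) and 1.61 for Fos (SE 0.17, adjusted p 0.00235). Junb rose by 0.87 (SE 0.10, adjusted p 0.00315). Junb shares 173 exon bases with Prdx2 on the other strand, and Prdx2 had 485% as many reads. The strand counted is not named, so reads of the shared stretch cannot be told apart.

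Zyxin has close relatives among the other LIM proteins, where 11 of 14 genes were tested, with 0 higher and 3 lower. The 3 were 27.3% of those tested, beside 5.18% lower and 5.87% higher among all tested genes. The count of 0 higher was by edgeR, with 2 higher at an unadjusted p under 0.05, 1 by DESeq2 and 0 by limma-voom. Ajuba had 36.6, 39.8 and 39.2 CPM in GSK126 cells, against 61.4, 64.9 and 67.8 CPM in DMSO cells, groups far apart, and fell by 0.75 (SE 0.07, adjusted p 0.00134). Trip6 fell by 0.47 (SE 0.07, adjusted p 0.00906). Lasp1 fell by 0.19 (SE 0.04, adjusted p 0.0345), and that call was lost without GSK126 replicate 1 (0.0941), GSK126 replicate 2 (0.0993), DMSO replicate 1 (0.105), DMSO replicate 2 (0.0982) or DMSO replicate 3 (0.108). The zyxin relatives Lpp and Limd1, named after their values were seen, did not pass, with log2 fold changes of 0.31 (SE 0.08) and -0.07 (SE 0.06).

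In the list of other focal adhesion genes, 20 of 22 were tested, with 2 higher and 1 lower. These were 10% and 5% of those tested, beside 5.87% and 5.18% of all tested genes. Itgb3, the integrin beta 3 gene, had 58.6, 55.5 and 61.8 CPM in GSK126 cells and 31.1, 25.2 and 34.3 CPM in DMSO cells. Its groups were apart and it rose by 0.96 (SE 0.12, adjusted p 0.00418). Itgb1, the integrin beta 1 gene, fell by 0.19 (SE 0.04, adjusted p 0.0204), a call lost without GSK126 replicate 1 (0.0689), GSK126 replicate 2 (0.0667), DMSO replicate 1 (0.0680), DMSO replicate 2 (0.0898) or DMSO replicate 3 (0.0598). Talin binds the tails of both integrins.

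Other myosins gave 3 higher and 1 lower of 11 tested (12 listed), or 27.3% and 9.09%, beside 5.87% and 5.18% of all tested genes. Myh14, described above, rose by 0.67 (SE 0.15, adjusted p 0.0328). Myo6, the motor that walks to pointed ends, rose by 0.49 (SE 0.09, adjusted p 0.0193), and Myo5a, the motor that carries melanosomes, rose by 0.56 (SE 0.10, adjusted p 0.0145). Each call was lost in some of the 6 fits that left out a single library. Myh14 lost it in all 6 cases, at an adjusted p up to 0.109. Myo5a lost it without DMSO replicate 1 (0.0509), DMSO replicate 2 (0.0526) or DMSO replicate 3 (0.0536), and Myo6 without GSK126 replicate 1 (0.0607) or DMSO replicate 2 (0.0571).

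The Arp2/3 complex nucleates branched filaments. Arp2/3 and WAVE genes gave 0 higher and 1 lower of 17 tested by edgeR, with 1 higher and 2 lower at an unadjusted p under 0.05, and none in either direction by DESeq2. By edgeR, 5.88% of this list was lower, beside 5.18% lower and 5.87% higher among all tested genes. The gene called was Arpc5l, a subunit of the complex, at a log2 fold change of -0.20 (SE 0.05, adjusted p 0.0358), and its call was lost without any single library, at an adjusted p up to 0.111. Arpc5l shares 62 exon bases with Rpl35 on the other strand, and Rpl35 had 137% as many reads, so reads of the shared stretch cannot be told apart. Other formins and Ena/VASP genes gave 0 of 12 by edgeR, 2 higher and 0 lower at an unadjusted p under 0.05, and 0 by DESeq2 and limma-voom. Daam1, the formin gene with the highest CPM of that list (not per length), had 144, 149 and 154 CPM in GSK126 cells and 141, 138 and 134 CPM in DMSO cells. Its groups were close without overlapping, with a log2 fold change of 0.11 (SE 0.05) that did not pass.

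Beside 5.87% higher and 5.18% lower among all tested genes, other monomer-binding, severing and capping genes gave 2 higher (11.8%) and 0 lower of 17 tested. Those 2 were Tmod1, a pointed-end capping gene that shares exons with Tstd2, at 0.35 (SE 0.07, adjusted p 0.0212), and Pfn2, a second profilin gene, at 0.31 (SE 0.06, adjusted p 0.0233). Other crosslinkers and cortex genes also gave 2 higher and 0 lower, of 13 tested: Ezr, which encodes the membrane linker ezrin, at 0.27 (SE 0.05, adjusted p 0.0133), and Sptbn1, a spectrin gene, at 0.22 (SE 0.05, adjusted p 0.0449). In these 2 lists, 1 and 2 genes were lower at an unadjusted p under 0.05 by edgeR, and DESeq2 and limma-voom called 0 lower. The 4 rises were lost in 3 to 6 of the 6 fits without a single library. The highest adjusted p was 0.0729 for Tmod1, 0.0942 for Pfn2, 0.0585 for Ezr and 0.131 for Sptbn1. Tmod1 lost its call without GSK126 replicates 1 or 2 or DMSO replicates 1 or 2, Pfn2 without any single library but GSK126 replicate 3, Ezr without any single DMSO library, and Sptbn1 without any single library.

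**Figure D4:**
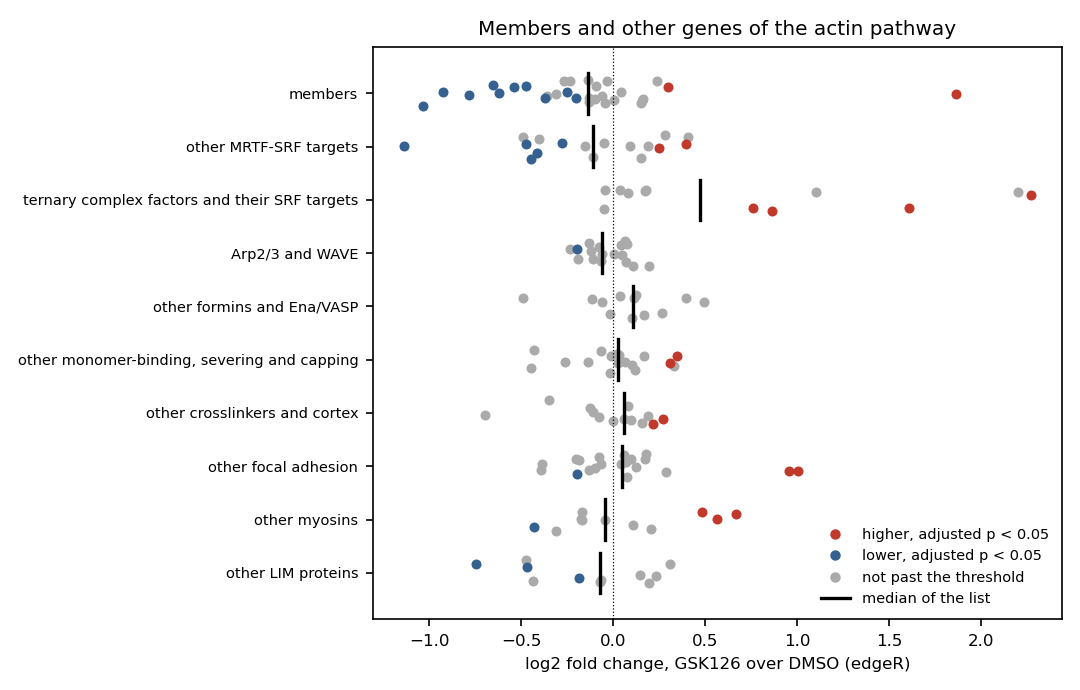
Log2 fold change of GSK126 over DMSO (edgeR) of every tested gene of the set and of 9 of the 10 further lists, with the median of each list as a black line, coloured by whether the adjusted p was under 0.05. The ternary complex factors and their targets have a median of 0.47, and the other lists shown have medians between -0.11 and 0.11, beside -0.14 for the set itself.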

How the data were processed

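RNA-seq of 6 samples was used, 3 GSK126 and 3 DMSO, grouped by the labels. Per the submitters' processing notes, reads were handled with CASAVA 1.8 and HISAT2 on GRCm38.p4 (mm10); how reads were counted, on which strand and with which annotation is not given in the sources used. The deposited counts are raw reads for each gene, and the authors gave FPKM values for them too. The deposited FPKM values were proportional to counts over library totals. Their lengths were 1.01 to 2.74 times the merged exon lengths of GENCODE M21 for the 30 tested genes of the set, so shares were also taken per kilobase of merged exons.

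Counts were filtered (filterByExpr), scaled by TMM and fitted in edgeR 4.0.16 (R 4.3.3) with the quasi-likelihood test on group, with Benjamini-Hochberg adjustment over 13601 genes at 0.05. CPM values use TMM library sizes. DESeq2 1.42.0, limma-voom and limma on log2(FPKM + 1) and log2(FPKM + 0.1) (limma 3.58.1), other filters and scalings, the replicate block and each library left out were the alternatives. Scripts were tested on simulated data. Genes sharing exons with a gene of at least 10% as many reads, and a robust edgeR fit, were alternatives chosen after seeing the data, as were shares per merged exon.

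The members and lists were chosen with earlier results of these data known. All 39 members were described. From each further list up to 3 called genes of at least 5 CPM with the largest log2 change were named. Where none was called, the gene with the highest CPM was named. Totals of 13594939 to 14713373 counts set the precision, and limits from 0 counts cover counting error only. The results of 1 of the 10 further lists and of 1 gene family are not reported here.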

Additional observations from a re-analysis of the deposited data

How the results depend on the processing

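Over 16 alternatives, 9 to 13 of the members passed the threshold (12 as reported), and leaving out single libraries gave 9 to 12. Of the 12, 9 kept their call in every alternative, and Tln1, Actn4 and Evl did not. Of the 9, Tpm1 and Pdlim7 kept theirs narrowly, at edgeR adjusted p up to 0.0486 and 0.0467 without a single library. No called value changed sign. Without the filter on low counts, 899 genes in all and 19 further actin pathway genes passed, against 1503 and 31 as reported. With the replicate number as a block, 408 genes, 9 members and 10 pathway genes passed. The labels give both groups numbers 1 to 3 and do not say whether same-numbered samples were paired. Deviations of same-numbered samples from their group means had correlations of 0.0132, -0.00194 and -0.0628. No sample correlated best with its own number. With 3 samples in each group, these values cannot show whether same-numbered samples shared a culture or batch. Leaving out single libraries gave 529 to 1243 genes and 12 to 35 pathway genes. Calls of 6 of the 22 named pathway genes held in every alternative run on them, which for Junb left out the fit without exon-sharing genes. Family shares (GSK126 minus DMSO, percentage points) kept their sign on each length scale. On raw counts the difference was -10.2 for Tpm1, 9.02 for Tpm3, -13.6 for Cnn2 and 13.6 for Cnn3, -0.642 for Myh9 and 0.639 for Myh14, 3.44 for Evl and 3.34 for Enah. Per merged exon it was -7.26 for Tpm1, 5.87 for Tpm3, -1.12 for Myh9 and 1.12 for Myh14. Leaving out a library, the difference ranged from -10.4 to -4.32 for Actb, from -5.39 to -2.27 for Tpm1, from -8.07 to -0.980 for Myl12a and from 1.42 to 8.40 for Myl12b; that of Tpm4 ranged from -1.18 to 1.44 and that of Mkl1 from -0.0618 to 3.10. The cause of these shifts was not tested. Depth limits the 9 untested members, which had at most 10 reads in a library.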
